A study of Mus musculus with 6 samples.

Results

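The enzymes that build haem and the receptor that brings in its iron were followed as 9 genes: Alas1, Alas2, Alad, Uros, Urod, Cpox, Ppox, Fech and Tfrc. They were taken as the entries whose RefSeq accession belongs to one of these genes, and all 9 were found among 23146 entries. The libraries hold RNA of EML cells, a mouse bone marrow progenitor line of strain BDF1 that depends on stem cell factor (SCF) and was grown in serum-containing medium with it. The study asked how the loss and the gain of KAI1, the tetraspanin encoded by Cd82, change mRNA levels. There were 4 groups: knockdown control (n = 2), KAI1 knockdown (n = 2), overexpression control (n = 1) and KAI1 overexpression (n = 1). How the gene was knocked down or overexpressed, and whether any line was a single clone, was not given in the sources used. No label says that replicates came from separate cultures, so p-values measure the spread between these samples only, which may be technical.

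Haem is made in 8 steps that start and end in the mitochondrion. The first joins glycine to succinyl-CoA and is catalysed by 5-aminolevulinate synthase, which exists as a general form, Alas1, and an erythroid form, Alas2. The intermediates are then built into a porphyrin ring by cytosolic enzymes, among them Alad, Uros and Urod, and finished in the mitochondrion by Cpox, Ppox and Fech, the last of which inserts the iron. Tfrc, transferrin receptor 1, takes up the iron bound to transferrin. Red cell precursors raise this pathway strongly for haemoglobin, while other cells make less haem, for cytochromes, peroxidases and catalase. Iron also feeds back on the pathway through the iron responsive element, an RNA hairpin bound by the iron regulatory proteins Aco1 and Ireb2: in a 5′ untranslated region it holds back translation, and in the 3′ untranslated region of Tfrc it protects the mRNA.

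Matches to this hairpin are shown because it is the known link between iron and the RNA of Alas2 and Tfrc. A strict form was searched in the transcripts of GENCODE M21 (build GRCm38): a C, 5 bases, the loop CAGTGN, and 5 bases that pair with the first 5. It was found in the 5′ untranslated region of Alas2 and at 4 places in the 3′ untranslated region of Tfrc. No result is given for Fech, so whether that gene holds the hairpin is not shown. The ferritin genes Fth1 and Ftl1, which store iron, carried 1 each in the 5′ region. Among the other genes of the lists described further on, Slc40a1, the iron exporter, held 1 in the 5′ region, and Bola3 and Ptgs1 held 1 each in the 3′ region. A match describes the letters and does not show binding. A gene that is not named here is not shown to lack the hairpin. Among 21877 protein coding genes, 0.142% held such a hairpin in a 5′ and 0.59% in a 3′ untranslated region. Only 1 gene, Tfrc, held 4 of different sequence in a 3′ region. Capitals mark the loop, and the letters are those of the DNA strand that matches the RNA.
Alas2 at chrX:150547464-150547480 (+ strand): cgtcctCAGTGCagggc
Fth1 at chr19:9982738-9982754 (+ strand): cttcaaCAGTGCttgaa
Ftl1 at chr7:45459785-45459801 (- strand): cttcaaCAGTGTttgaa
Tfrc at chr16:32631225-32631241 (+ strand): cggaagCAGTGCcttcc
Tfrc at chr16:32631604-32631620 (+ strand): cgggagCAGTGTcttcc
Tfrc at chr16:32631669-32631685 (+ strand): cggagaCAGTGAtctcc
Tfrc at chr16:32631716-32631732 (+ strand): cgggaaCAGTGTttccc

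The regions before the start of Alas1 and Alas2 are shown because these genes encode the same step and had unlike patterns across the libraries. RefSeq promoter windows (GRCm38.p6, 250 bases before to 50 after the start) were matched for all of the genes but Fech, in 12 windows, some of which overlap. Letters searched on both strands were AGATAA or TGATAA or AGATAG or TGATAG for GATA factors, CCACACCC or CCGCACCC or CCCCACCC for KLF factors, the palindrome bound by NRF1, TGACTCAGC or TGAGTCAGC for NF-E2, and TATAAA. The 250 bases before the start follow, for Alas1 before the more downstream of its 2 listed starts, with these matches in capitals. A match is a description of the sequence, not a bound site.
Alas2 at chrX:150547167-150547416 (+ strand): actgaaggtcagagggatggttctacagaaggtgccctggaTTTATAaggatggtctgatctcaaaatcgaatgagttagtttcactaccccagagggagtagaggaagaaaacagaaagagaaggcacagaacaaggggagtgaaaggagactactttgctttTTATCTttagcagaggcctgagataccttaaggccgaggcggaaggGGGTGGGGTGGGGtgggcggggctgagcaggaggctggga
Alas1 at chr9:106247731-106247980 (- strand): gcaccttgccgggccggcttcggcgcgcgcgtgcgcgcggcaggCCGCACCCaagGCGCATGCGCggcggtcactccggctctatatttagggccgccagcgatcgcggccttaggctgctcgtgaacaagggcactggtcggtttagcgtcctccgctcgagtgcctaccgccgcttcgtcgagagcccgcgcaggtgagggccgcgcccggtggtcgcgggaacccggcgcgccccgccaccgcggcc

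Alas2 held 1 GATA match at -86, a pair of overlapping KLF matches at -40 and -35, and the letters TATAAA at -209, all on the opposite strand. Alas1 held a KLF match at -206 and the NRF1 letters at -195. Over the 12 windows, GATA letters stood in 3 (Alas2, Cpox and 1 of the 2 windows of Uros), against 29.8% of 32851 windows in RefSeq. KLF letters stood in 5, of Alas1, Alas2 and Tfrc, against 14.5% of all. The overlapping windows of Alas1 share a KLF site, as do those of Tfrc, so the same letters were counted again. The NRF1 letters stood in 2, both of Alas1 and both the same site, against 0.971%, and NF-E2 letters in 0, against 0.822%. TATAAA stood in 1, against 13.6%.

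The values are RPKM, reads relative to transcript length and to all mapped reads, so they can be compared between genes. The depth was estimated from the steps of low values at about 9500000 to 24900000 reads per library. Cd82 itself had 43.9 and 13.8 RPKM for the knockdown controls, 7.65 and 6.91 for the knockdown, 11.9 for the overexpression control and 15.2 for the overexpression. Knockdown control 1 stood apart: it was at least 2-fold from control 2 in 2142 of 10112 entries, while control 2 was that far from the knockdown libraries in 300 and 522. The labels name basophils as the cell type. Mcpt8, a basophil protease, was found at 116 to 3908 RPKM, but Fcer1a, the IgE-binding chain of the IgE receptor, was at 24.2 RPKM in knockdown control 1, 7.41 in the overexpression and at most 0.289 elsewhere. Elane, Flt3, C1qa, Cd3e and Dcn, of neutrophils, progenitors, macrophages, T cells and stroma, stayed under 0.5 RPKM in all 6 libraries, while other markers of some of these classes were present, such as Ctsg at 434 to 1295 RPKM and Pdgfrb at 9.75 to 49.8 RPKM.

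Markers of red cell precursors and mast cells differed between libraries in opposite ways, and these values belong beside each result on haem genes. The summed level of 14 erythroid markers other than globins, among them Klf1, Nfe2 and Gata1, was 233 and 456 RPKM for the knockdown controls and 469 and 437 in the knockdown. It was 318 for the overexpression control and 159 for the overexpression. The summed level of 17 mast cell and basophil markers, such as Cpa3 and the Mcpt proteases, was 78941 and 17236 RPKM for the knockdown controls, 9327 and 8309 for the knockdown, 7000.4 for the overexpression control and 28815 for the overexpression. The erythroid sum was thus lowest, and the mast cell sum highest, in knockdown control 1 and the overexpression library, but single markers split. Of the 12 erythroid markers that reached 0.5 RPKM, all 12 were lower in the overexpression library than in each of the other 4 libraries, and 9 were so in knockdown control 1. The exceptions there were Gata1 (87.3 RPKM, against 53.5 in control 2), Epor (15.6 against 14.8) and Tal1 (89.6 against 81.9). Of the mast cell and basophil markers, 16 of 17 were higher in knockdown control 1 than in each of those 4, all but Mcpt8, and 12 of 17 in the overexpression library. The erythroid membrane genes Slc4a1 and Ank1 stayed under 0.5 RPKM everywhere. Progenitor and megakaryocyte markers also set these 2 libraries apart, in no single direction. Cd34 was at 0.859 RPKM in knockdown control 1 and 15.9 in the overexpression, against 64.7 to 77.9 elsewhere, and the platelet glycoprotein gene Gp9 at 0.959 and 0.467 against 26.9 to 43.6. The platelet chemokine gene Ppbp was at 550 RPKM in knockdown control 1 and 20.6 to 31.1 in the other 5. The summed level of 7 megakaryocyte markers was 2351 RPKM in knockdown control 1, 325 in the overexpression and 717 to 1257 elsewhere. That of 5 stem and progenitor markers was 749, 68.1 and 166 to 289. Most of this second sum was Ly6a, at 748 RPKM in knockdown control 1, 51.5 in the overexpression and 95.9 to 217 elsewhere. Hlf, at 0.231 RPKM, and Meis1, at 0.12 RPKM, were like Cd34 lowest in knockdown control 1. Less RNA of a gene per cell and fewer cells that express it cannot be told apart in these bulk samples. The part of such cell mixtures in the results that follow was not tested.

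**Figure D1:**
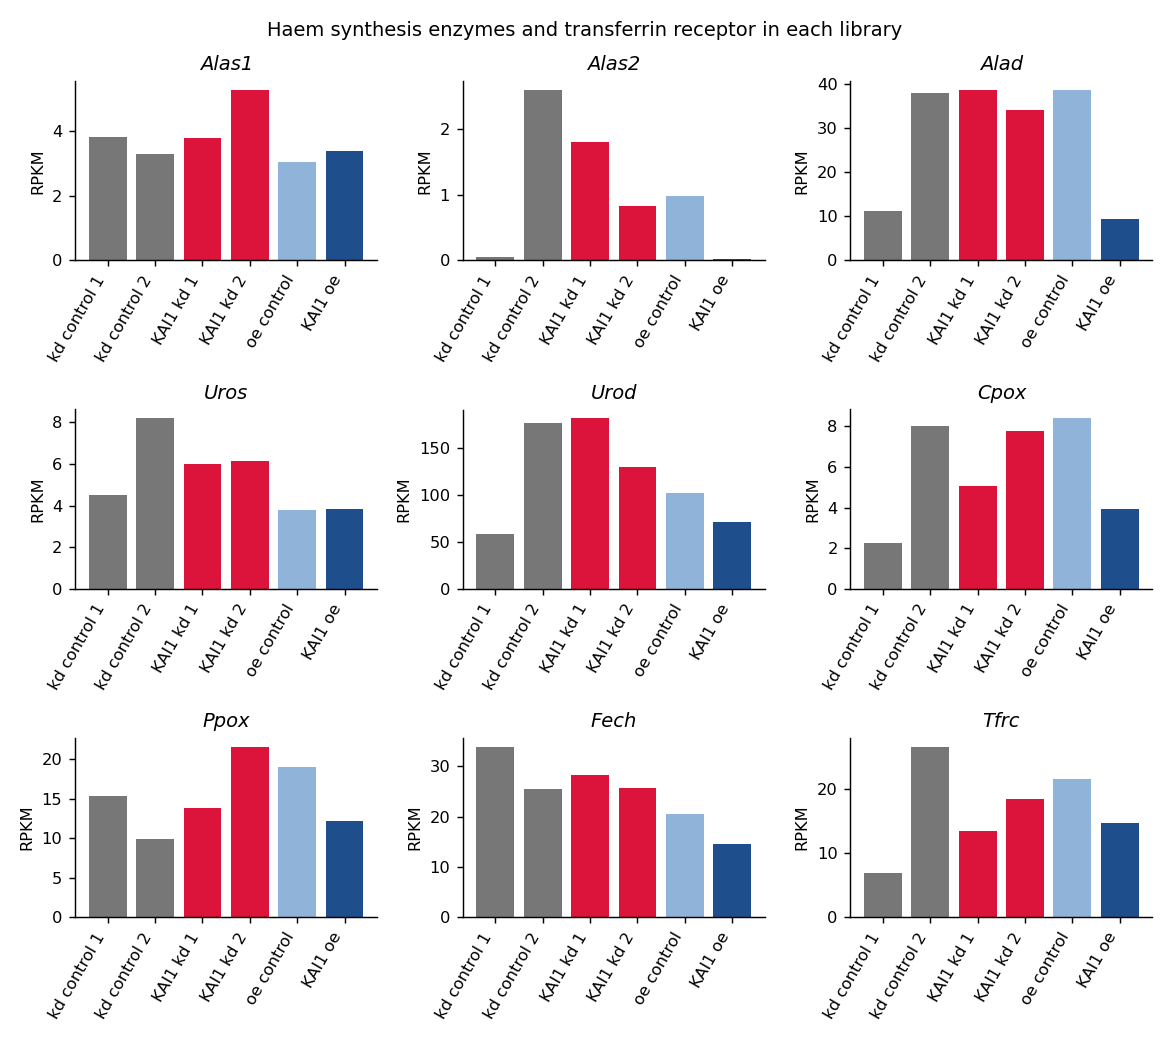
RPKM of each gene (vertical axes, from 0) in the 6 libraries (horizontal axes: kd, knockdown arm in grey for controls and red for KAI1 knockdown; oe, overexpression arm in light blue for the control and dark blue for KAI1 overexpression). Alas2 and Alad are low in knockdown control 1 and in KAI1 overexpression, while Alas1 lies between 3.03 and 5.29 RPKM throughout.

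At the entry to the pathway, the general synthase was even and the erythroid synthase was not. Alas1 (mm9, chromosome 9, 106135786 to 106150285) had 3.83 and 3.29 RPKM for the knockdown controls, 3.78 and 5.29 for the knockdown, 3.03 for the overexpression control and 3.39 for the overexpression. Its highest library was 1.74-fold above its lowest. Alas2 (mm9, chromosome X, 146981960 to 147005165) had 0.0561 and 2.59 RPKM for the knockdown controls, 1.79 and 0.824 for the knockdown, 0.971 for the overexpression control and 0.0273 for the overexpression. Knockdown control 1 and the overexpression library were far below the other 4, and the span from lowest to highest was 95-fold. Its values were whole multiples of what 1 read is worth, and gave 2, 48, 43, 30, 47 and 1 reads in the same order. Control 2 was 46.2-fold above control 1 (95% exact interval 12.1 to 392, which covers counting error only).

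Alas2 never passed Alas1. It made up 44.1% of the summed RPKM of both genes in knockdown control 2, 32.2% and 13.5% in the knockdown libraries and 24.2% in the overexpression control. In knockdown control 1 it was 1.44%, and in the overexpression library 0.8%. The share was therefore highest in a control and spread over more than a factor of 2 between the knockdown replicates themselves.

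**Figure D2:**
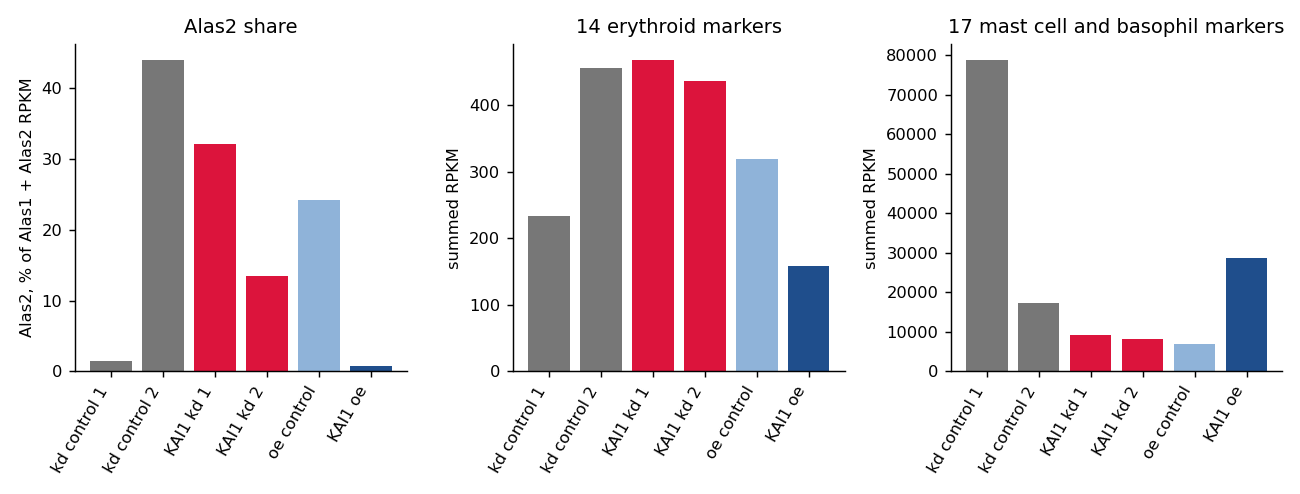
Alas2 as a percentage of Alas1 plus Alas2 RPKM (left), summed RPKM of 14 erythroid markers other than globins (middle) and summed RPKM of 17 mast cell and basophil markers (right), each in the 6 libraries with the colours of the plot of levels. The low Alas2 shares of 1.44% and 0.8% fall in the libraries with the lowest erythroid sums, 233 and 159 RPKM, and the highest mast cell sums.

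In the cytosolic part of the pathway, Alad and Urod were the most abundant and shared the low value in knockdown control 1. Alad, which condenses a pair of aminolevulinate molecules into the pyrrole, had 11.3 and 38.0 RPKM for the knockdown controls, 38.8 and 34.2 for the knockdown, 38.8 for the overexpression control and 9.31 for the overexpression. A set of 4 libraries was nearly level, and the other 2 were 3.0- to 4.2-fold lower. Urod, which removes carboxyl groups from the ring, had 57.8 and 176 RPKM for the knockdown controls, 181 and 129 for the knockdown, 102 for the overexpression control and 71.3 for the overexpression. It was the highest of the 9 genes in each library, while Alas2 was the lowest. Uros, which closes the ring, was low and narrow in range: 4.50 and 8.20 RPKM for the knockdown controls, 6.01 and 6.12 for the knockdown, 3.78 for the overexpression control and 3.82 for the overexpression.

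The mitochondrial enzymes did not share a pattern. Cpox, which makes protoporphyrinogen, had 2.26 and 8.0 RPKM for the knockdown controls, 5.05 and 7.78 for the knockdown, 8.40 for the overexpression control and 3.92 for the overexpression. As with Alas2, Alad and Urod, the lowest pair of its values was in knockdown control 1 and the overexpression library. That held for 4 of the 9 genes and for 15.3% of all 10112 entries. Ppox, which oxidises the ring to protoporphyrin, was instead lowest in knockdown control 2: 15.3 and 9.88 RPKM for the knockdown controls, 13.8 and 21.6 for the knockdown, 19.0 for the overexpression control and 12.2 for the overexpression. Fech, the ferrochelatase, was highest in knockdown control 1: 34.0 and 25.4 RPKM for the knockdown controls, 28.3 and 25.6 for the knockdown, 20.5 for the overexpression control and 14.5 for the overexpression. Their ranges were 2.18-fold for Ppox and 2.34-fold for Fech.

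Tfrc, the iron importer, had 6.85 and 26.6 RPKM for the knockdown controls, 13.5 and 18.3 for the knockdown, 21.6 for the overexpression control and 14.7 for the overexpression. Both extremes were control libraries, 3.88-fold apart. Knockdown control 1 was the lowest library for 3 of the 9 genes (Urod, Cpox and Tfrc) and for 28.6% of all entries. The overexpression library was lowest for Alas2, Alad and Fech, and for 17.1% of all entries.

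Between KAI1 knockdown and its control, no difference in these genes passed the test, and the control libraries were further apart than the group means for each but Alas1. limma's test of log2(RPKM + 1), adjusted by Benjamini and Hochberg over 10113 entries, called 0 of the 9 genes at 0.05, and 0 had an unadjusted p under 0.05. Of all entries limma called 0.0297% (3), and 3.32% had an unadjusted p under 0.05; with the replicate number as a block it called 4, and 0 of the 9 genes. In 0 of the 9 did the knockdown libraries lie together above the controls, and in 0 below, where 21.5% and 17.0% of all entries did so. The median difference, knockdown minus control, was 0.27 on the log2 scale over the 9 genes and 0.028 over all entries. The median of the 9 was -0.20 without knockdown control 1 and 1.09 without control 2, where those over all entries were 0.031 and 0.026.

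The largest difference was that of Alad, with a mean of 24.7 ± 18.9 (SD, n = 2) RPKM in controls and 36.5 ± 3.23 (SD, n = 2) in the knockdown. Its log2 difference was 0.77 (SE 0.61, limma adjusted p = 0.83). The SE of Urod, 0.61, was larger than its difference of 0.60 (adjusted p = 0.845), and that of Tfrc, 0.66, was larger than its 0.19 (adjusted p = 0.953). Alas2 differed by 0.21 (SE 0.69, limma adjusted p = 0.946), and its knockdown values lay between those of the controls. The direction for Alas2 and Tfrc depended on the scale: on the RPKM scale the mean of Alas2 was 1.32 ± 1.79 (SD, n = 2) in controls and 1.31 ± 0.685 (SD, n = 2) in the knockdown. That of Tfrc was 16.7 ± 14.0 and 15.9 ± 3.44 (SD, n = 2 each), so both were slightly lower in the knockdown.

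Cpox differed by 0.43 (SE 0.57), Ppox by 0.46 (SE 0.35) and Alas1 by 0.27 (SE 0.26), with limma adjusted p of 0.872, 0.83 and 0.842. Uros and Fech differed by -0.0095 (SE 0.33) and -0.12 (SE 0.26), with adjusted p of 0.997 and 0.923. The differences of Alad, Urod, Cpox, Alas2 and Tfrc depended on the choice of control. Without knockdown control 1 they were -0.060, -0.20, -0.30, -0.67 and -0.72, and none of the 9 genes passed (adjusted p from 0.406 to 0.885), where 0.158% of all entries did. Without knockdown control 2 they were 1.60, 1.39, 1.16, 1.10 and 1.09, and Alad passed (adjusted p = 0.0313), as did 10.3% of all entries. With 1 control library, a gene's own spread comes from the knockdown pair only, and limma adds information from all entries. Such a call has no replicated control behind it. Fech, at 0.080 without control 1 and -0.32 without control 2, and Uros, at -0.38 and 0.36, also took opposite signs. Ppox and Alas1 stayed above 0 in both.

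**Figure D3:**
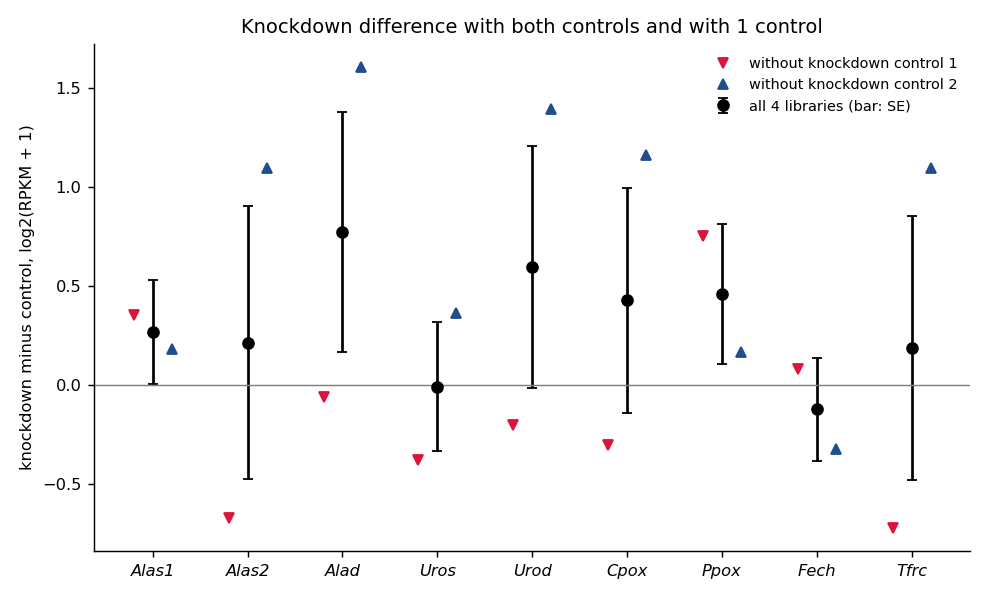
Difference between KAI1 knockdown and its control on the log2(RPKM + 1) scale for each gene: black points with SE bars use all 4 libraries, red triangles leave out knockdown control 1 and blue triangles leave out knockdown control 2. For Alas2, Alad, Uros, Urod, Cpox, Fech and Tfrc the triangles lie on opposite sides of 0.

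In the overexpression arm, Alas2 and Alad had the lowest levels relative to the control, 5 further genes lay below it by less, and Alas1 and Uros were close to it. Each side has 1 library, so there is no test; intervals are exact 95% intervals from the estimated reads, and cover counting error only. Alas2 had 47 reads in the control and 1 in the overexpression, a level 35.5-fold lower (interval 6.08 to 1433). It did not reach the mean of 1 RPKM asked for in this comparison, so counts here cover 8 of the 9 genes. By the size rule of 2-fold on the RPKM + 1 scale, 1 of the 8 was lower (Alad), where 5.21% of 9936 entries were, and 0 were higher, where 4.92% were. The median log2 ratio, overexpression against control, was -0.52 over the 8 genes and 0.0057 over all entries.

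Alad in the overexpression library was 0.24 of its control (interval 0.206 to 0.278). Cpox was 0.466 of its control (0.399 to 0.543), which is a log2 ratio of -0.93 on the RPKM + 1 scale and so just short of the size rule. The next genes were Ppox at 0.643 of the control (0.571 to 0.724), Tfrc at 0.68 (0.636 to 0.726), Urod at 0.7 (0.663 to 0.74) and Fech at 0.709 (0.669 to 0.751). Alas1 was 1.12 of the control (0.927 to 1.34) and Uros 1.01 (0.797 to 1.28), and both intervals hold 1. The same 2 libraries differed in erythroid markers, counted here with the globin genes Hbb-bt and Hbb-bs. Of 13 measured, 10 were at least 2-fold lower, both globin genes among them, and 0 were higher. Klf1, for example, stood at 18.7 RPKM in the control and 0.533 in the overexpression. Of 16 mast cell and basophil markers 12 were at least 2-fold higher.

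**Figure D4:**
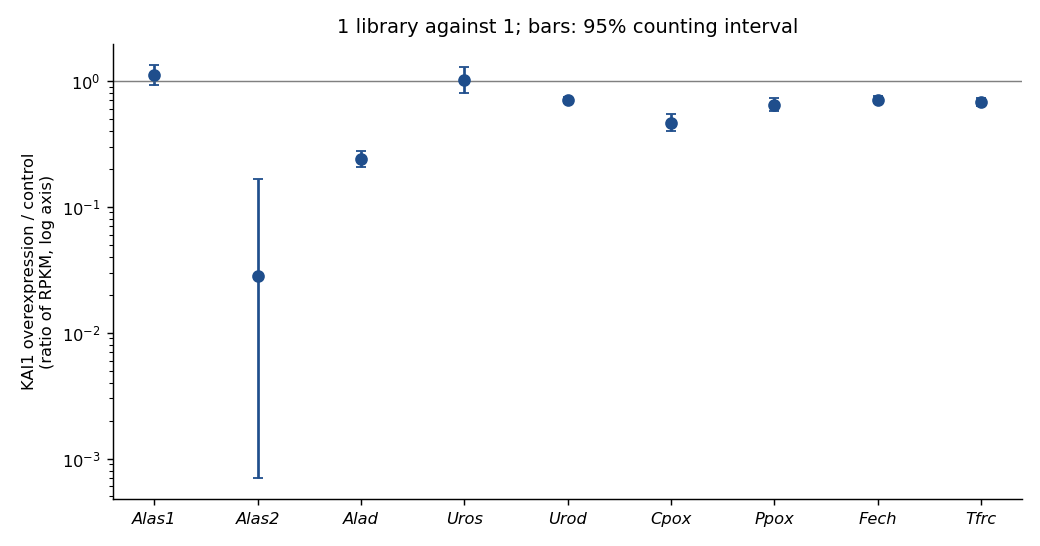
Ratio of KAI1 overexpression to overexpression control for each gene on a log axis, with exact 95% counting intervals; 1 library stands on each side. Alas2, at 1 against 47 reads, and Alad, at 0.24 of the control, are the lowest.

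Genes around the pathway were taken from 5 lists, and in the knockdown limma called 0 members of any of them, with an unadjusted p under 0.05 for 1 gene, Fbxl5. Counts of genes whose knockdown libraries lay together above or below the controls are to be read against 21.5% and 17.0% of all entries. Without knockdown control 1 these shares were 42.0% and 36.0%, and without control 2 they were 44.2% and 41.3%. The list of iron uptake, storage and export had 13 of 17 genes tested. Knockdown libraries lay above the controls in 4 and below in 1, in 8 and 3 without knockdown control 1, and in 7 and 5 without control 2. Tfr2, an erythroid and liver sensor of transferrin, had 0.303 and 5.08 RPKM for the controls and 6.97 and 6.44 for the knockdown (log2 difference 1.45, SE 0.79, limma adjusted p = 0.83). It stood at 4.38 RPKM for the overexpression control and 0.798 for the overexpression, the same libraries being low as for Alas2. The ferritin heavy chain gene Fth1 ran the other way, at 5536 and 3520 RPKM in the controls, 3039 and 2609 for the knockdown, 2068 for the overexpression control and 4395 for the overexpression. Pcbp1, an iron chaperone, had 62.0 and 52.4 RPKM for the controls and 70.8 and 90.7 for the knockdown. Slc25a37, which imports iron into the mitochondria of red cell precursors, had 3.90 and 6.68 RPKM for the controls, 7.31 and 6.81 for the knockdown, 6.47 for the overexpression control and 3.27 for the overexpression. Of 13 genes measured in the overexpression arm, 1 was at least 2-fold higher (Fth1) and 1 lower (Tfr2).

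Iron sensing and iron-sulfur cluster genes, 18 of 18 tested, had knockdown libraries above the controls in 4 and below in 5, which became 4 and 10 without knockdown control 1 and 8 and 7 without control 2. Fbxl5, an iron-sensing ubiquitin ligase subunit that removes iron regulatory protein Ireb2, had 3.97 and 3.23 RPKM for the controls and 1.71 and 1.29 for the knockdown (log2 difference -0.88, SE 0.26, limma adjusted p = 0.83). Hscb, a cochaperone of cluster assembly, stood at 51.9 and 43.6 against 31.4 and 34.9 RPKM, and Nfs1, the cysteine desulfurase, at 10.9 and 18.1 against 19.2 and 20.1 RPKM. In the overexpression arm 0 of the 18 were 2-fold apart on the RPKM + 1 scale. The ferredoxin gene Fdx1, at 55.8 RPKM in the control and 112 in the overexpression, fell just short, and passed with a pseudocount of 0.1 and with quantile normalization. On the same scale it was followed by Isca2, at 33.6 and 23.1 RPKM, and Fbxl5, at 1.39 and 2.39 RPKM.

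The list of glycine and porphyrin transport, synthase turnover and mitochondrial partners had 16 of 18 genes tested, with knockdown libraries above the controls in 5 and below in 2. The counts were 7 and 6 without knockdown control 1, and 12 and 4 without control 2. Pgrmc1, a haem-binding membrane protein, stood at 168 RPKM in knockdown control 1 and 12.5 in control 2, against 11.6 and 10.7 in the knockdown. The protease genes Clpp and Lonp1, which degrade mitochondrial matrix proteins, stood at 56.4 and 63.9 against 82.1 and 90.1 RPKM, and at 23.6 and 34.1 against 35.4 and 45.6 RPKM. Of 16 genes in the overexpression arm, 1 was at least 2-fold higher. This was the glycine transporter Slc6a9, at 6.29 RPKM in the control and 21.4 in the overexpression, and it also stood higher in knockdown control 1, at 43.9 RPKM, than in control 2, at 6.76. The mitochondrial glycine carrier Slc25a38 went the other way, from 18.5 to 9.67 RPKM, as did the transporter Abcb10, from 12.8 to 6.97 RPKM.

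Haem export, breakdown and haem-responsive genes, 11 of 16 tested, had knockdown libraries above the controls in 1, Bach1, and below in 2, Blvrb and Hmox2. Leaving out knockdown control 1 gave 4 and 3, and leaving out control 2 gave 4 and 7. Bach1, a repressor that haem inactivates, had 2.84 and 3.32 RPKM for the controls and 4.33 and 4.63 for the knockdown. Hmox2, a haem oxygenase, stood at 72.0 and 68.2 against 60.4 and 52.8 RPKM. Blvrb, a biliverdin and flavin reductase abundant in red cells, stood at 303 and 307 against 224 and 271 RPKM. It was also the 1 gene of 11 at least 2-fold lower in the overexpression arm, at 169 RPKM in the control and 63.1 in the overexpression, with 0 higher. Bach1 stood there at 3.56 and 2.03 RPKM and the haem exporter Flvcr1 at 1.12 and 2.03 RPKM.

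The list of haem-binding enzymes, which also holds partners that bind no haem, such as the flavoprotein gene Por, had 15 of 22 genes tested. Knockdown libraries lay above the controls in 5 and below in 2 (8 and 5 without knockdown control 1, 8 and 6 without control 2). Cyc1, cytochrome c1 of the respiratory chain, had 140 and 333 RPKM for the controls and 401 and 428 for the knockdown. Cyb5a, cytochrome b5, stood at 159 and 70.8 against 54.3 and 42.2 RPKM. Ptgs1, a prostaglandin synthase, stood at 0.402 and 1.02 against 1.52 and 4.61 RPKM. Of 14 genes in the overexpression arm, Cyb5a (44.1 to 90.8 RPKM) and the cytochrome P450 reductase gene Por (42.6 to 103 RPKM) were at least 2-fold higher. Mpo, the haem peroxidase of early myeloid cells, was lower, at 661 RPKM in the control and 45.8 in the overexpression, and it stood at 7.84 RPKM in knockdown control 1 against 538 in control 2.

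The genes nearest in pattern to the main members were found by the root mean square difference between log2(RPKM + 1) profiles, each centred on its own mean, over the 6 libraries. The search covered the 9952 of 10112 entries that are not small RNAs, and the differences are a description with no test. For Alas2 they were Oosp1 at a difference of 0.095, Irgm1 at 0.19, Mtx2, Piga and, in the fifth place, Urod at 0.21. The added 1 narrows the profile of a low gene: in RPKM Alas2 spanned 95-fold and Urod 3.14-fold. Likeness was not measured with another pseudocount. For Alas1 they were Cmtr1, Scarb1, Rasa3, Gtf3c1 and Mapk8ip3, at 0.061 to 0.072. For Tfrc they were Gemin2, Slc25a13, Gemin6, Cep43 and Gtf2h2, at 0.12 to 0.16. Oosp1 had 0.58 and 4.33 RPKM for the knockdown controls, 3.88 and 1.92 for the knockdown, 1.87 for the overexpression control and 0.494 for the overexpression.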

How the data were processed

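RNA of 6 EML libraries was sequenced, and the authors deposited 1 table of RPKM per library, per the file headers. Build mm9 and the tools Bowtie, Cufflinks and TopHat2 2.0.9 come from the submitters' processing notes, whose settings, like strand and poly(A) selection, are not given in the sources used here. Of 23170 entries, 24 repeat an accession and locus, which left 23146. RefSeq named 22840 and GENCODE 125; names come from GRCm38 tables and loci from the mm9 files, with starts counted from 1. Depth was estimated from the steps of low values: relative depths of library pairs matched within 0.1%, and the absolute depth of knockdown control 1 had quartiles of 16300000 and 19200000 reads over 266 entries. Reads behind other values are estimates from transcript lengths.

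The knockdown was tested with limma 3.58.1 (R 4.3.3, mean-variance trend, two-sided) on log2(RPKM + 1), which understates changes of low genes, over entries that average 1 RPKM or more in the 4 libraries; the code was tested on simulated data. The overexpression arm has a 2-fold size rule and the same filter over its 2 libraries. The unit had been taken as RPKM or FPKM in the design. Alternatives were a pseudocount of 0.1, no filter, quantile normalization, equal median ratios, division by the sum, a replicate block and leaving out each library. The genes and lists were chosen with earlier results of these data known. Named list genes are, per list, the 3 with the largest knockdown difference among those whose groups do not overlap and the 3 with the largest overexpression ratio, and the 5 nearest in pattern for Alas2, Alas1 and Tfrc; other genes named were chosen after their values were seen. A planned comparison of Alas1 and Alas2 proteins was not made.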

Additional observations from a re-analysis of the deposited data

How the results depend on the processing

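Of all entries limma called 5 with a pseudocount of 0.1, 0 with no filter on low values (683 with an unadjusted p under 0.05), and 0 to 1045 with a library left out, against 3 in the fit of all 4 libraries. Without knockdown control 1, the knockdown libraries lay above the remaining control in 3 of the 9 genes and below in 4, where 42.0% and 36.0% of all entries did so. Without knockdown control 2 the counts were 6 and 1, where 44.2% and 41.3% of all entries did so. Leaving out either KAI1 knockdown replicate gave 2 above the controls and 0 below. With quantile normalization 1 (Alas1) lay above both controls. Shares over all entries were not taken for these last settings, so no result about the 9 genes is drawn from their counts. In the overexpression arm 2 genes, Alad and Cpox, were at least 2-fold lower with a pseudocount of 0.1. With a library left out, the knockdown difference ranged on the log2 scale from -0.67 to 1.10 for Alas2, -0.060 to 1.60 for Alad, -0.38 to 0.36 for Uros, -0.20 to 1.39 for Urod, -0.30 to 1.16 for Cpox, -0.32 to 0.080 for Fech and -0.72 to 1.09 for Tfrc, so each of these 7 turned in direction; that of Uros was 0.020 with quantile normalization. Except for Uros, each turned without knockdown control 1; Alas2 and Uros turned without KAI1 knockdown replicate 1 (-0.095 and 0.0013) and Tfrc without replicate 2 (-0.023). The cause was not tested. Whether equal replicate numbers mark a pairing is not stated. The replicate 1 minus replicate 2 differences of the knockdown controls and of the KAI1 knockdown libraries had a correlation of -0.075 over entries. With the replicate block limma called 4 entries and 0 of the 9 genes (adjusted p from 0.9989 to 0.9994). The depth limits Alas2 most, at 1 and 2 reads in its lowest libraries.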
